A study of Mus musculus with 11 samples.

Results

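Cysteine and selenocysteine tRNAs were followed in mouse embryonic fibroblasts that overexpressed the tRNA methyltransferase METTL1 with its partner WDR4. In the abundance tables each tRNA entry carries its amino acid, its anticodon and a number. Entries were taken by their amino acid, which gave 30 members beside 271 entries for other tRNAs. Of the members, 28 were cysteine entries with the anticodon GCA (Cys-GCA), 1 was a cysteine entry with the anticodon ACA (CysACA21), and 1 was the selenocysteine entry SeCTCA2 (SeC-TCA).

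Cysteine tRNA with the anticodon GCA reads both cysteine codons, UGC and UGU, and is charged by cysteinyl-tRNA synthetase. Cys-GCA is among the families known to carry N7-methylguanosine (m7G) in the variable loop, the mark that the METTL1-WDR4 complex places. Selenocysteine tRNA is different in shape and in use. It reads the stop codon UGA where the mRNA carries a selenocysteine insertion element, and it has a long variable arm like the leucine and serine tRNAs. It is first charged with serine by seryl-tRNA synthetase, and the serine is then converted on the tRNA to selenocysteine, which sits in the active site of antioxidant enzymes such as the glutathione peroxidases and thioredoxin reductases. Both amino acids share the UGN codon box with tryptophan.

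All cells came from the MEF-WT line, fibroblasts that carry SV40 T antigen. Per the labels' protocols, METTL1-Wt and WDR4 were introduced with pBabe retroviral vectors, and stable clones with these or with empty vector were kept under puromycin and G418 until expansion. The protocols do not describe the mutant construct or say how many clones a group holds. The groups used here were METTL1-Wt + WDR4, METTL1-Mut + WDR4 and Empty vector, with 2 input libraries each. Which change the mutant METTL1 carries is not in the labels. Input libraries were made from small RNA treated with the demethylase AlkB and not cleaved. The tables hold only tRNA, so neither the expression of the constructs nor the identity of the cells could be checked in them. The study made them to follow tRNA abundance when METTL1 and WDR4 are overexpressed.

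Abundance was given as RPM, reads per 1000000 tRNA reads, so each value is a share of the tRNA reads and a change in total tRNA cannot be seen. In such bulk samples, fewer cells holding a tRNA and less of it per cell cannot be told apart either. The values imply 10519149 and 13814411 tRNA reads in the METTL1-Wt libraries, 13634835 and 10032452 in the METTL1-Mut libraries, and 16003708 and 5405585 in the Empty vector libraries. The RPM of 1 read ran between 0.0625 in Empty vector library 1 and 0.185 in Empty vector library 2. The median SD of the members on the log2 scale was 0.06 between METTL1-Wt libraries, 0.06 between METTL1-Mut libraries and 0.05 between Empty vector libraries, against 0.06, 0.15 and 0.08 over all entries. Whether the libraries of a group came from separate cultures is not in the labels, and the spread behind each p-value may thus be only technical. Changes were tested with limma on log2(RPM + 1), which understates the change of low entries, and an entry was called at a Benjamini-Hochberg (BH) adjusted p under 0.05 over all entries of the table.

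Cys-GCA held more entries than any other of the 54 anticodon families and ranked 18 of 54 by summed RPM. The RefSeq annotation of GRCm38.p6, the assembly behind the authors' build mm10, has 57 nuclear Cys-GCA tRNA genes, of which 56 are 72 bases long. Of these genes, 48 lie in a cluster at chr6:48133937-48363603, 1 lies elsewhere on chromosome 6, 5 lie on chromosome 11, 2 on chromosome 9 and 1 on chromosome 17. RefSeq symbols did not match the entry names, so no entry was placed on a gene. How a read that fits several genes was counted is not stated in the labels or file headers. Among the 29 members with a mean of at least 10 RPM, CysGCA127 and CysGCA76 differed by under 1% in every one of the 6 libraries. Linking pairs that differed by at most 5% into chains put 13 entries into 4 groups. These were CysGCA37 with CysGCA98, CysGCA131 with CysGCA46, CysGCA113, CysGCA127, CysGCA24 and CysGCA76 together, and CysGCA25, CysGCA44, CysGCA55, CysGCA7 and CysGCA73 together. The last group is called near-identical below, although not every pair in it lay within 5%. In Empty vector library 2, CysGCA55 had 86.8 RPM and CysGCA7 79.0 RPM. Entries of such a group may not be separate measurements, so counts of entries overstate the number of independent observations.

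**Figure D1:**
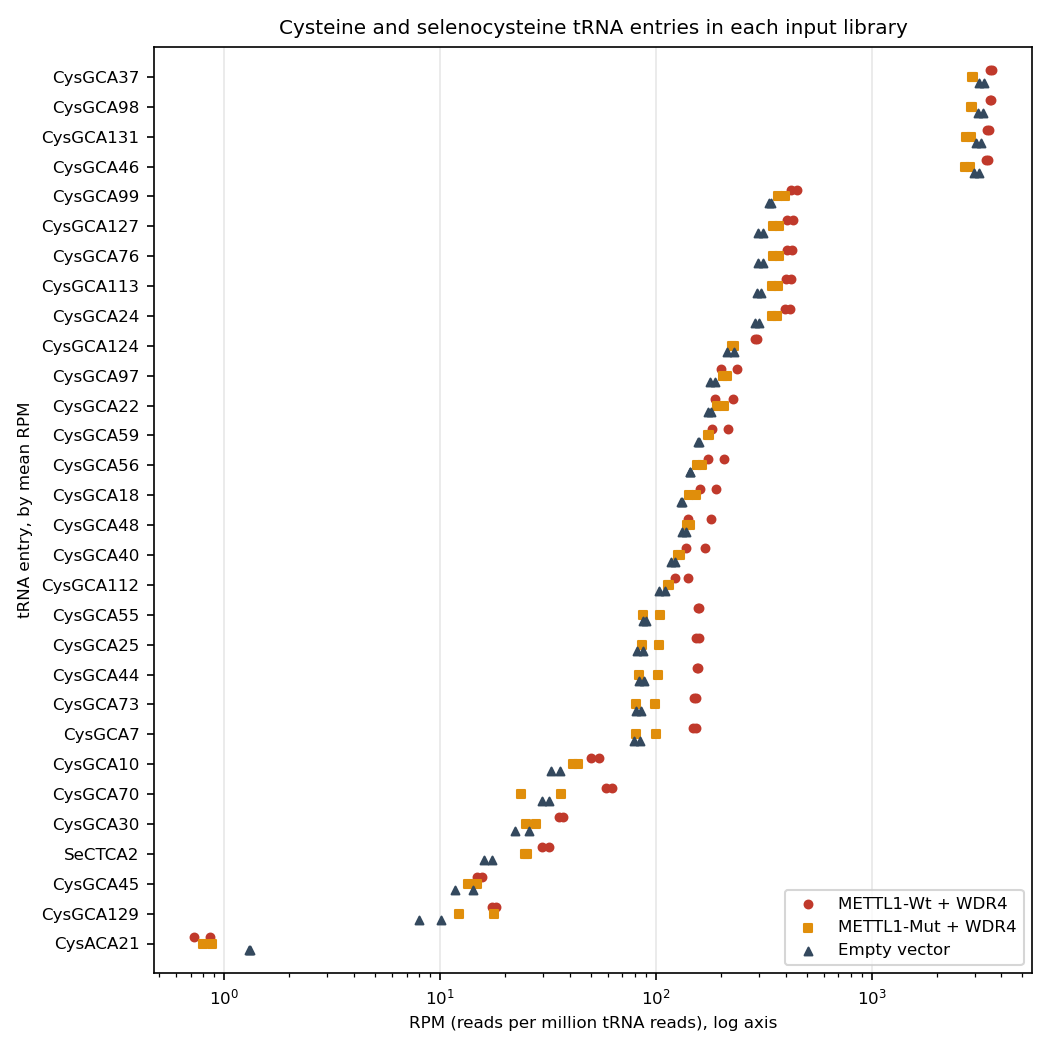
RPM (reads per 1000000 tRNA reads, log axis) of each of the 30 cysteine and selenocysteine entries in the 6 input libraries, ordered by mean RPM. Circles are METTL1-Wt + WDR4, squares METTL1-Mut + WDR4 and triangles Empty vector libraries, each point being 1 library. The 4 top entries average 3096 to 3257 RPM, while CysACA21 averages 0.977 RPM.

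In METTL1-Wt cells the cysteine GCA family made up a larger share of tRNA reads than in Empty vector cells. Its 28 entries together held 18461 and 19162 RPM in the METTL1-Wt libraries, against 16493 and 15681 RPM in the Empty vector libraries. That is 1.85% and 1.92% of tRNA reads with METTL1-Wt, against 1.65% and 1.57% with Empty vector. Both METTL1-Wt libraries lay above both Empty vector libraries, and the ratio of the means was 1.17 (18812 ± 495 against 16087 ± 575 RPM, SD, n = 2 each). The METTL1-Mut libraries held 15195 and 15542 RPM, below both Empty vector libraries and below both METTL1-Wt libraries. The ratio of means was 0.955 for METTL1-Mut over Empty vector and 1.22 for METTL1-Wt over METTL1-Mut. Centred on the families held to lack m7G, the log2 ratio of the sums was 0.0130 for METTL1-Wt over Empty vector, against 0.23 without centring, and 0.17 for METTL1-Wt over METTL1-Mut, against 0.29. These sums are given as a description without a test.

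By entry, 20 of the 28 Cys-GCA entries rose in METTL1-Wt over Empty vector cells and none fell, where 30.2% of all entries rose and 7.31% fell. Their median log2 fold change was 0.40, against 0.16 over all entries. In all 28 entries both METTL1-Wt libraries were above both Empty vector libraries, a pattern that 49.5% of all entries showed, while 15.0% showed the opposite one. Without METTL1-Wt library 2, 10 Cys-GCA entries were called, as higher calls over all entries fell to 50, against 91 with every library. When the libraries were centred on the families held to lack m7G, which shifts the median of all entries by −0.21 on the log2 scale, 7 were called higher and none lower: CysGCA55, CysGCA25, CysGCA44, CysGCA73, CysGCA7, CysGCA70 and CysGCA129. The same centring turned the split over all entries to 29 higher and 34 lower, against 91 and 22 without it. Centred on the median of all entries instead, 13 Cys-GCA entries were called higher and none lower. The split over all entries was then 51 higher and 3 lower.

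With METTL1-Mut, 1 of the 28 entries rose over Empty vector cells and none fell, against 7.31% higher and 0.997% lower over all entries. The median log2 fold change of the family was 0.14, against 0.09 over all entries. Both METTL1-Mut libraries were above both Empty vector libraries in 15 Cys-GCA entries (32.2% of all entries) and below both in 4 (15.9% of all entries). When METTL1-Wt was set against METTL1-Mut directly, 6 entries were higher and none lower, where 11.3% of all entries were higher and 3.65% lower. Both METTL1-Wt libraries lay above both METTL1-Mut libraries in 23 entries and below both in none, against 43.2% and 15.3% of all entries. The count of 6 was 1 without METTL1-Wt library 1 and 0 without METTL1-Wt library 2, and it was 13 without METTL1-Mut library 1 and 12 without METTL1-Mut library 2. Over all entries the count of higher calls, 34, was 2, 1, 79 and 87 in the same order, so the whole table swung with these libraries. A fit that leaves out a library has 1 library in that arm, which is assumed to vary like the other group's libraries. Both comparisons with Empty vector use the same 2 Empty vector libraries.

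**Figure D2:**
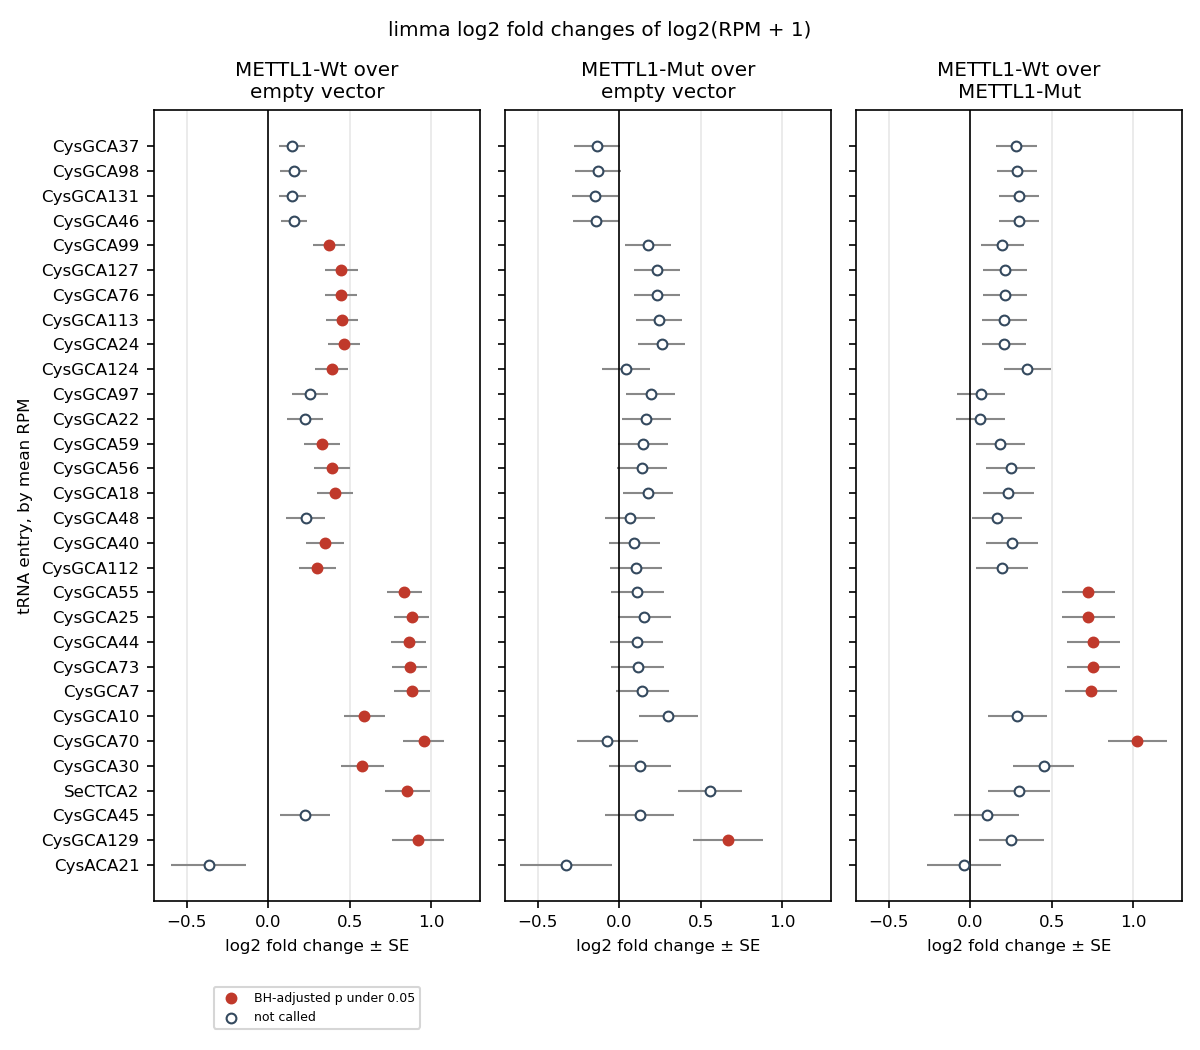
Log2 fold change ± SE from limma on log2(RPM + 1) for each of the 30 members, ordered by mean RPM, in the 3 comparisons (n = 2 libraries a group). Filled points have a BH-adjusted p under 0.05: 21 members in METTL1-Wt over Empty vector, 1 in METTL1-Mut over Empty vector and 6 in METTL1-Wt over METTL1-Mut. The shares of all entries called higher were 30.2%, 7.31% and 11.3%.

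The Cys-GCA entries spanned levels that differed by 239-fold and 230.4-fold between the highest and the lowest entry in the METTL1-Wt libraries, 239-fold and 199-fold in the METTL1-Mut libraries, and 331-fold and 396-fold in the Empty vector libraries. CysGCA37 was the highest entry in every library, while the lowest was CysGCA45 or CysGCA129. For description they were split into 5 groups, 4 by mean RPM and 1 made of the 5 near-identical entries, which were set apart from the middle level for that likeness. The bounds and the separate group were chosen after the values were seen. The groups differ in how they moved, but no difference between groups of entries was tested.

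CysGCA37, CysGCA98, CysGCA131 and CysGCA46 were the most abundant and held most of the family. CysGCA37 had 3550.3 and 3619.8 RPM in METTL1-Wt, 2933 and 2959 RPM in METTL1-Mut, and 3332 and 3148 RPM in Empty vector libraries. The 4 entries ran in parallel: METTL1-Wt libraries highest, Empty vector libraries next and METTL1-Mut libraries lowest, without overlap between any of the groups. The distances were small. For METTL1-Wt over Empty vector the log2 fold changes were 0.15 to 0.16 and none passed (limma BH-adjusted p 0.14 to 0.17). Without Empty vector library 1 the values were 0.19 to 0.20 and were called higher. They were 0.11 to 0.12 without Empty vector library 2, and 0.13 to 0.18 without either METTL1-Wt library, and were not called. With every library, the 95% interval of CysGCA37 ran between −0.02 and 0.32. Centred on the families held to lack m7G, the 4 values turned to between −0.07 and −0.06, so their direction depends on the scaling. For METTL1-Mut over Empty vector they were −0.15 to −0.13 (limma BH-adjusted p 0.65 to 0.71), and for METTL1-Wt over METTL1-Mut 0.28 to 0.30 (limma BH-adjusted p 0.085 to 0.11). None of the 4 passed in either comparison.

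CysGCA99, CysGCA127, CysGCA76, CysGCA113 and CysGCA24 formed the next level, with means of 353 to 385 RPM. CysGCA99 had 425 and 449 RPM in METTL1-Wt, 396 and 367 RPM in METTL1-Mut, and 341 and 333 RPM in Empty vector libraries. CysGCA24 had 398 and 419 RPM in METTL1-Wt, 364 and 344 RPM in METTL1-Mut, and 302 and 289 RPM in Empty vector libraries. Here the METTL1-Mut libraries stood between the others, again with no overlap in any of the 5 entries. All 5 rose with METTL1-Wt over Empty vector, with log2 fold changes of 0.37 (CysGCA99) to 0.47 (CysGCA24) and limma BH-adjusted p of 0.0013 to 0.0055. The call of CysGCA99 was lost without either METTL1-Wt library, and those of CysGCA127, CysGCA76 and CysGCA113 without METTL1-Wt library 2. All 5 calls were lost when centred on the families held to lack m7G, and that of CysGCA99 also when centred on all entries. With METTL1-Mut over Empty vector the values were 0.18 to 0.26 and none passed (limma BH-adjusted p 0.37 to 0.60). METTL1-Wt over METTL1-Mut gave 0.20 to 0.22, also without a call (limma BH-adjusted p 0.29 to 0.32).

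The middle level held 9 entries with means of 118 to 247 RPM. Of these, CysGCA124, CysGCA59, CysGCA56, CysGCA18, CysGCA40 and CysGCA112 rose with METTL1-Wt over Empty vector (log2 fold changes 0.30 to 0.41, limma BH-adjusted p 0.0049 to 0.040). CysGCA124 had 293 and 289 RPM in METTL1-Wt, 225 and 231 RPM in METTL1-Mut, and 230.2 and 214 RPM in Empty vector libraries, so its METTL1-Mut and Empty vector libraries overlapped. CysGCA18 had 161 and 189 RPM in METTL1-Wt, 143 and 153 RPM in METTL1-Mut, and 130.2 and 132 RPM in Empty vector libraries. In 8 of the 9 entries METTL1-Wt library 2 stood above METTL1-Wt library 1, CysGCA124 being the exception, and the 6 calls were lost without METTL1-Wt library 2. Those of CysGCA124 and CysGCA112 were lost without METTL1-Wt library 1 as well. CysGCA112 also lost its call without Empty vector library 1. All 6 calls were lost when centred on all entries and when centred on the families held to lack m7G. The other 3 entries had log2 fold changes of 0.23 to 0.26 without a call, at a limma BH-adjusted p of 0.071 to 0.13. None of the 9 passed with METTL1-Mut over Empty vector (0.04 to 0.19) or with METTL1-Wt over METTL1-Mut (0.06 to 0.35).

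The 5 near-identical entries CysGCA55, CysGCA25, CysGCA44, CysGCA73 and CysGCA7 rose with METTL1-Wt against both of the other groups. CysGCA55 had 159 and 158 RPM in METTL1-Wt, 87.1 and 104 RPM in METTL1-Mut, and 89.7 and 86.8 RPM in Empty vector libraries. CysGCA25 had 158 and 154 RPM in METTL1-Wt, 86.1 and 103 RPM in METTL1-Mut, and 87.7 and 81.6 RPM in Empty vector libraries. Both METTL1-Wt libraries stood far above the other 4, while METTL1-Mut library 1 lay between the Empty vector libraries and METTL1-Mut library 2 above them. For METTL1-Wt over Empty vector the log2 fold changes were 0.84 (CysGCA55, SE 0.11) to 0.88 (CysGCA7, SE 0.11), with limma BH-adjusted p of 2.4e-06 to 3.3e-06. Their summed RPM was 774 with METTL1-Wt and 423 with Empty vector, a ratio of 1.83. Each of the 5 was called in all 14 alternatives run, at log2 fold changes of 0.62 and above. For METTL1-Mut over Empty vector the values were 0.11 to 0.15 and none passed (limma BH-adjusted p 0.68 to 0.76). For METTL1-Wt over METTL1-Mut all 5 were called, at 0.72 to 0.75 (limma BH-adjusted p 0.00017 to 0.00024), and all 5 lost that call without METTL1-Wt library 2 and without METTL1-Wt library 1. Because they may share reads, the 5 entries may amount to 1 observation.

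The 5 least abundant entries, with means of 13.96 to 43.0 RPM, varied most among themselves. CysGCA70 had 58.8 and 62.8 RPM in METTL1-Wt, 23.7 and 36.3 RPM in METTL1-Mut, and 32.1 and 29.8 RPM in Empty vector libraries. Its log2 fold change was 0.95 for METTL1-Wt over Empty vector (SE 0.12, limma BH-adjusted p = 3.5e-06) and 1.02 for METTL1-Wt over METTL1-Mut (SE 0.18, limma BH-adjusted p = 2.4e-06). The second of these calls was lost without METTL1-Wt library 2 (limma BH-adjusted p = 0.066). Its METTL1-Mut libraries were the farthest apart of all members, with an SD of 0.42 on the log2 scale, and its METTL1-Mut over Empty vector value was −0.07 (limma BH-adjusted p = 0.85) and 0.23 without METTL1-Mut library 1.

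CysGCA129 was the only member that rose with METTL1-Mut over Empty vector. It had 18.3 and 17.4 RPM in METTL1-Wt, 12.2 and 17.8 RPM in METTL1-Mut, and 10.1 and 7.95 RPM in Empty vector libraries. Its log2 fold change was 0.67 (SE 0.21, limma BH-adjusted p = 0.031) for METTL1-Mut and 0.92 (SE 0.16, limma BH-adjusted p = 0.00012) for METTL1-Wt over Empty vector. The call for METTL1-Wt held in all 14 alternatives run, the one for METTL1-Mut in 7 of 15. Without Empty vector library 1, without Empty vector library 2 or without METTL1-Mut library 2 the METTL1-Mut call was lost. Leaving out either Empty vector library also lowered the number of higher calls over all entries, while leaving out METTL1-Mut library 2 did not. METTL1-Wt over METTL1-Mut gave 0.25 (limma BH-adjusted p = 0.42), with overlapping libraries. The value in Empty vector library 2, the shallowest, rested on 43 reads and has a 95% Poisson interval of 5.76 to 10.7 RPM, which covers counting error only.

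CysGCA10 and CysGCA30 rose with METTL1-Wt over Empty vector as well. CysGCA10 had 54.4 and 49.9 RPM in METTL1-Wt, 41.3 and 43.8 RPM in METTL1-Mut, and 32.8 and 35.9 RPM in Empty vector libraries, in 3 separate bands (METTL1-Wt over Empty vector 0.59, SE 0.12, limma BH-adjusted p = 0.0012). CysGCA30 had 37.2 and 35.4 RPM in METTL1-Wt, 27.7 and 24.9 RPM in METTL1-Mut, and 22.2 and 25.9 RPM in Empty vector libraries, where the METTL1-Mut and Empty vector libraries overlapped (0.58, SE 0.13, limma BH-adjusted p = 0.0019). Both calls held without each of the libraries in turn, but were lost when centred on the families held to lack m7G (limma BH-adjusted p 0.060 and 0.091). CysGCA45 did not pass in any comparison. It had 14.8 and 15.7 RPM in METTL1-Wt, 13.5 and 14.9 RPM in METTL1-Mut, and 11.7 and 14.2 RPM in Empty vector libraries, and its METTL1-Wt over Empty vector value was 0.23 with a 95% interval up to 0.54 (limma BH-adjusted p = 0.27).

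Measured in reads rather than in entries, the family is dominated by its 4 top entries. They held 74.6% of the Cys-GCA reads with METTL1-Wt, 74.6% with METTL1-Mut and 78.5% with Empty vector. Their summed RPM was 14034 with METTL1-Wt, 11462 with METTL1-Mut and 12630.1 with Empty vector. The other 24 entries held 4600.0 and 4956 RPM in METTL1-Wt, 3910.2 and 3901 RPM in METTL1-Mut, and 3510.2 and 3404 RPM in Empty vector libraries. METTL1-Mut libraries were thus below Empty vector libraries for the 4 top entries and above them for the sum of the other 24, and the family sum of METTL1-Mut followed the top entries. Of the 2725 RPM by which METTL1-Wt exceeded Empty vector on the deposited scale, where the centring above leaves a log2 ratio of 0.0130, the 4 top entries gave 51.5%, the next 5 gave 20.1%, the 9 of the middle level 12.9%, the 5 near-identical entries 12.9% and the 5 least abundant 2.61%.

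**Figure D3:**
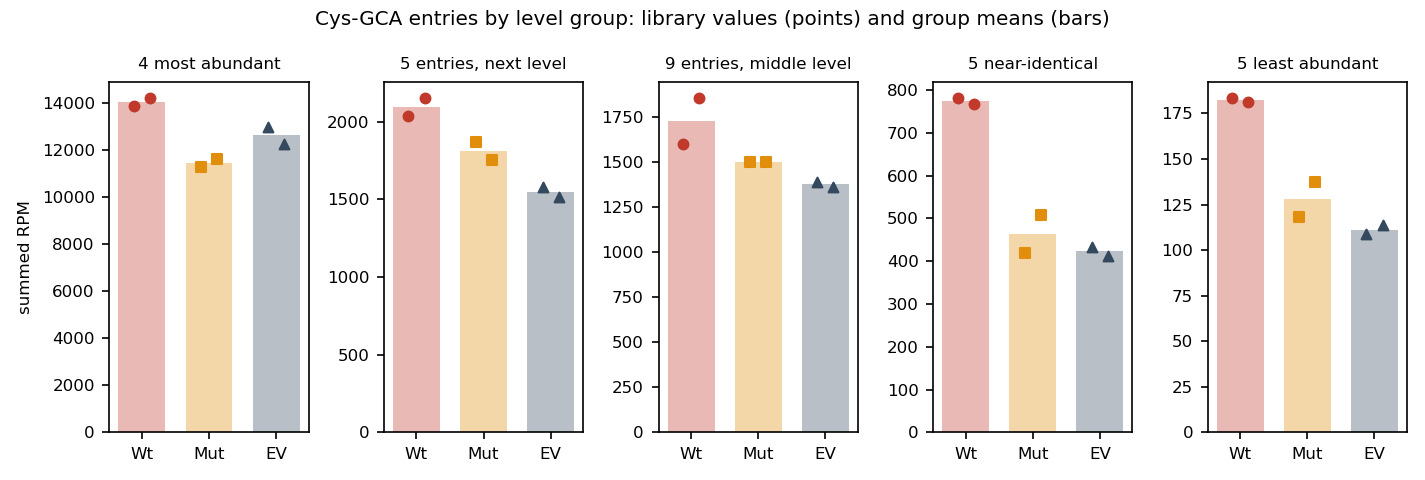
Summed RPM of the Cys-GCA entries in each of the 5 level groups, with points for the 2 libraries and bars for the mean of METTL1-Wt, METTL1-Mut and Empty vector (each panel has its own axis, starting at 0). METTL1-Mut stands below Empty vector in the 4 most abundant entries, between the other groups in the next 2 panels, and close to Empty vector in the 5 near-identical entries, where METTL1-Wt reached 781 and 767 RPM.

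CysACA21, whose anticodon ACA pairs with the cysteine codon UGU, was close to the limit of the data. It had 0.856 and 0.724 RPM in METTL1-Wt, 0.880 and 0.797 RPM in METTL1-Mut, and 1.31 and 1.30 RPM in Empty vector libraries. These values rest on 9 and 10 reads with METTL1-Wt, 12 and 8 reads with METTL1-Mut, and 21 and 7 reads with Empty vector. All 4 METTL1 libraries lay below both Empty vector libraries. The 95% Poisson intervals of the libraries overlapped, for example 0.391 to 1.62 RPM in METTL1-Wt library 1 and 0.521 to 2.67 RPM in Empty vector library 2. The log2 fold change was −0.37 for METTL1-Wt over Empty vector (95% interval −0.84 to 0.11, limma BH-adjusted p = 0.23) and −0.33 for METTL1-Mut over Empty vector (limma BH-adjusted p = 0.61). METTL1-Wt over METTL1-Mut gave −0.04 (limma BH-adjusted p = 0.90). In the fit without the variance trend, abundant and rare entries share the same prior spread. That fit called the METTL1-Wt over Empty vector value lower (limma BH-adjusted p = 0.027), and the other 12 alternatives did not. Overlap of intervals is not a test, so whether the gap exceeds counting error was not tested.

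SeCTCA2, the selenocysteine tRNA, stood at a low level and rose with METTL1-Wt over Empty vector. It ranked 228 among all entries by mean RPM. It had 32.1 and 29.6 RPM in METTL1-Wt, 24.6 and 25.2 RPM in METTL1-Mut, and 17.4 and 15.9 RPM in Empty vector libraries. The 3 groups did not overlap, with METTL1-Wt highest and Empty vector lowest. The values rest on 338 and 409 reads with METTL1-Wt, 336 and 253 reads with METTL1-Mut, and 278 and 86 reads with Empty vector.

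The mean was 30.9 ± 1.79 RPM with METTL1-Wt and 16.6 ± 1.03 RPM with Empty vector (SD, n = 2 each), a ratio of 1.86. The log2 fold change of METTL1-Wt over Empty vector was 0.85 (SE 0.14, limma BH-adjusted p = 7.3e-05). That call held in all 14 alternatives run, between 0.62 and 0.91, with a largest limma BH-adjusted p of 0.011. With METTL1-Mut the mean was 24.9 ± 0.407 RPM (SD, n = 2), a ratio of 1.498 to Empty vector. The log2 fold change of METTL1-Mut over Empty vector, 0.56 (SE 0.20, 95% interval 0.17 to 0.94), missed the threshold at a limma BH-adjusted p of 0.055. It passed in 5 of 15 alternatives: at a pseudocount of 10, without the variance trend, with all 6 libraries in 1 fit and without either METTL1-Mut library. The last of these fits rest on 1 METTL1-Mut library. It did not pass when either Empty vector library was left out, where higher calls over all entries also became fewer. Nor did it pass with a mean of at least 10 RPM (limma BH-adjusted p = 0.13). Centred on all entries and on the families held to lack m7G, the limma BH-adjusted p was 0.16 and 0.33. Over the 15 alternatives run its value was 0.39 to 0.62, with a limma BH-adjusted p of 0.0062 to 0.81.

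Set directly against METTL1-Mut, METTL1-Wt gave a log2 fold change of 0.30 for SeCTCA2 (SE 0.19, 95% interval −0.08 to 0.67, limma BH-adjusted p = 0.30), so whether the METTL1 constructs differ in their selenocysteine tRNA was not resolved. Counting error alone gives 95% Poisson intervals of 28.8 to 35.8 RPM and 26.8 to 32.6 RPM in the METTL1-Wt libraries, 22.1 to 27.4 RPM and 22.2 to 28.5 RPM in the METTL1-Mut libraries, and 15.4 to 19.5 RPM and 12.7 to 19.7 RPM in the Empty vector libraries. The intervals of all 4 METTL1 libraries lay above those of both Empty vector libraries. The intervals of METTL1-Wt and METTL1-Mut libraries overlapped in part.

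**Figure D4:**
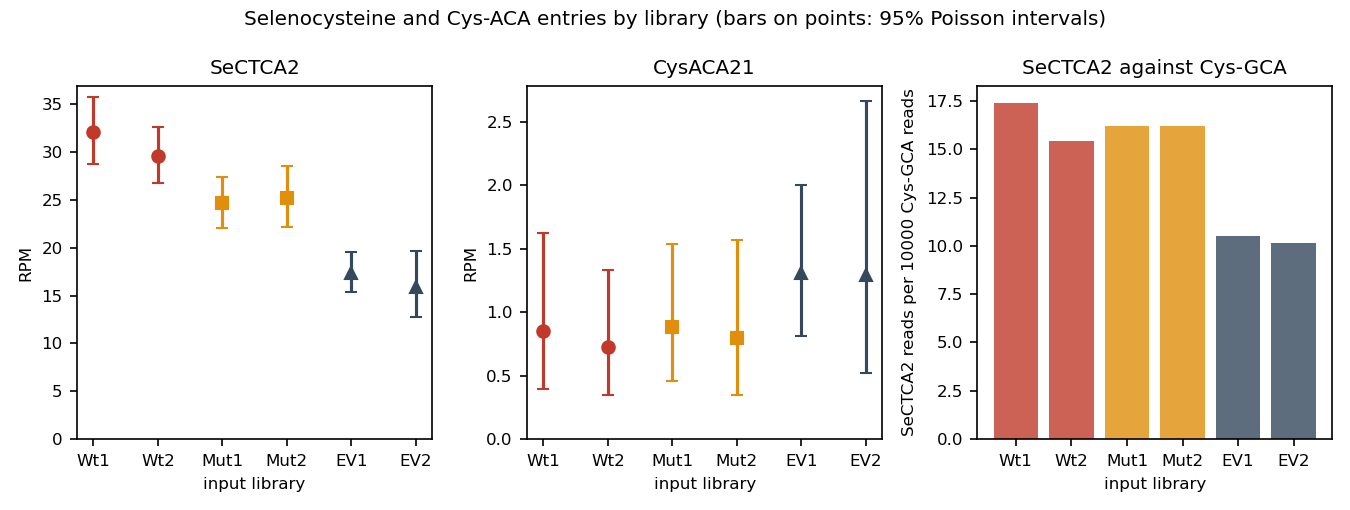
RPM of SeCTCA2 and of CysACA21 in each of the 6 input libraries, with 95% Poisson intervals of the implied reads, and SeCTCA2 reads per 10000 Cys-GCA reads. SeCTCA2 steps down across the METTL1-Wt, METTL1-Mut and Empty vector libraries, the CysACA21 intervals overlap in all 6, and the ratio to Cys-GCA is 15.5 to 17.4 in the METTL1 libraries and 10.1 to 10.5 in the Empty vector libraries.

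Taking both amino acids, 21 of the 30 members rose with METTL1-Wt over Empty vector and none fell, 1 rose with METTL1-Mut over Empty vector, and 6 were higher with METTL1-Wt than with METTL1-Mut. In the same order, 30.2%, 7.31% and 11.3% of all entries were called higher and 7.31%, 0.997% and 3.65% lower. At an unadjusted p under 0.05 the counts of members were 22, 2 and 12, all of them higher, against 135, 48 and 78 among all entries in either direction. Without METTL1-Wt library 2 the count of 21 was 11. The count of 1 also changed when single libraries were left out, and so did the count of higher calls over all entries. Over the 15 alternatives run, the METTL1-Mut over Empty vector log2 fold change of CysGCA129 was 0.39 to 0.92. SeCTCA2 and the sum of Cys-GCA differed in where METTL1-Mut stood, between the other groups for SeCTCA2 and below both for Cys-GCA. For every 10000 Cys-GCA reads there were 17.4 and 15.5 SeCTCA2 reads in METTL1-Wt, 16.2 and 16.2 in METTL1-Mut, and 10.5 and 10.1 in Empty vector libraries. This ratio does not depend on the total of the other tRNAs. It was higher in all 4 METTL1 libraries than in both Empty vector libraries, and the METTL1-Mut values lay between those of METTL1-Wt.

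The fourth family of the codon box, Trp-CCA, reads the tryptophan codon UGG. Its 6 entries held 21158 and 21239 RPM in METTL1-Wt, 24774 and 18648 RPM in METTL1-Mut, and 21258 and 22070 RPM in Empty vector libraries. None was called by limma in any comparison, and 0 had an unadjusted p under 0.05. The medians were −0.05, −0.003 and −0.04 on the log2 scale for METTL1-Wt over Empty vector, METTL1-Mut over Empty vector and METTL1-Wt over METTL1-Mut. All calls in the UGN box were therefore those of Cys-GCA and SeC-TCA entries.

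Among the leucine and serine families, which share the long variable arm with selenocysteine tRNA, 6 of 42 entries rose and 5 fell with METTL1-Wt over Empty vector (median 0.06). Of all entries, 30.2% rose and 7.31% fell in that comparison (median 0.16). The 22 serine entries, whose synthetase also charges selenocysteine tRNA, had 5 higher and none lower (median 0.15), and the 20 leucine entries had 1 higher and 5 lower (median 0.05). With METTL1-Mut over Empty vector none of the 42 rose and 1, a serine entry, fell (median 0.13), against 7.31% and 0.997% of all entries. Among the 148 entries of m7G families other than Cys-GCA, 45 rose and 15 fell with METTL1-Wt over Empty vector (median 0.13), 10 rose and 1 fell with METTL1-Mut over Empty vector (median 0.06), and 12 were higher and 7 lower in METTL1-Wt over METTL1-Mut (median 0.09). Entries called higher were 30.4%, 6.76% and 8.11% of these m7G families, against 30.2%, 7.31% and 11.3% of all entries. The corresponding medians were 0.40, 0.14 and 0.25 for Cys-GCA and 0.16, 0.09 and 0.10 for all entries. These lists are set side by side as a description, and no difference between them was tested.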

How the data were processed

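The tools named in the submitters' processing notes are Bowtie, Trim Galore and bedtools, with build mm10 and without versions. The authors deposited 2 tables of RPM, reads per 1000000 tRNA reads, which list the same entries and hold identical Empty vector values. Only the 6 input libraries were used; the 5 cleaved libraries were not analysed here. RPM was transformed to log2(RPM + 1) and fitted for each comparison on its own 4 libraries in limma 3.58.1 (R 4.3.3), two-sided, with a trend in the prior variance and no filter, and p-values were BH-adjusted over all entries. With 2 libraries on each side the smallest p of an exact permutation test is 0.33. All RPM values were whole multiples of 1 read within 0.01 reads, and the implied reads served only for Poisson intervals. Members, lists and tests were chosen with earlier results of these data known. Entries named are SeCTCA2, CysACA21 and the Cys-GCA entries among the 5 most and 3 least abundant or called in a comparison, with per-library values for some of them. Families held to carry or lack m7G were taken from background knowledge.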

Additional observations from a re-analysis of the deposited data

How the results depend on the processing

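For METTL1-Wt over Empty vector, 21 members were called higher. Centring on all entries gave 14, as higher calls over all entries fell from 91 to 51. Centring on families held to lack m7G gave 8, leaving out each library gave 11 to 25, and the fit without trend also called 1, CysACA21, lower. That centring turned CysGCA37 (−0.0676), CysGCA98 (−0.0571), CysGCA131 (−0.0652) and CysGCA46 (−0.0562), all uncalled. It gave summed log2 ratios for Cys-GCA of 0.0130 (METTL1-Wt over Empty vector), −0.16 (METTL1-Mut over Empty vector) and 0.17 (METTL1-Wt over METTL1-Mut), and for SeC-TCA of 0.68, 0.49 and 0.19. For METTL1-Mut over Empty vector the count of 1 became 2 at a pseudocount of 10, without trend and with all 6 libraries in 1 fit. Over all entries 18, 17 and 24 were then called higher, against 22 in the main fit. The count of 1 became 0 with a mean of at least 10 RPM, centred on all entries and centred on families held to lack m7G. Over all entries these settings called 21, 13 and 7 higher. Leaving out single libraries changed the count as well, along with the higher calls over all entries. Uncalled values that changed sign for METTL1-Mut over Empty vector were CysGCA124 (−0.0046 centred on all entries, −0.0550 on families held to lack m7G) and CysGCA40 (−0.0020 on families held to lack m7G). Leaving out each library gave −0.0122 to 0.0923 for CysGCA124, −0.0192 to 0.2411 for CysGCA55, −0.0357 to 0.2487 for CysGCA44, −0.0266 to 0.2548 for CysGCA73, −0.0061 to 0.2908 for CysGCA7, −0.3696 to 0.2250 for CysGCA70 and −0.0082 to 0.2570 for CysGCA45. For METTL1-Wt over METTL1-Mut the count of 6 was 0 to 13 when leaving out each library, and CysGCA45 was −0.0175 under centring on families held to lack m7G. In that comparison CysGCA129 ran between −0.0026 and 0.5055 and CysACA21 between −0.0927 and 0.0135 when leaving out each library. The cause of these changes was not tested.

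The replicate numbers were not taken as pairs, since deviations of same-numbered libraries correlated at −0.05 (METTL1-Wt and METTL1-Mut), 0.09 (METTL1-Wt and Empty vector) and −0.12 (METTL1-Mut and Empty vector). With the number as a replicate block the counts of higher members were 21, 0 and 6 in the 3 comparisons. Over all entries they were 89, 12 and 20, against 91, 22 and 34 without the block. With crossed numbers, added after seeing the data, the count was 0 for METTL1-Mut over Empty vector, and 18 over all entries. Count-based fits (edgeR, DESeq2) were not run: the deposited values are RPM, and the tables hold too few low values for an independent check of the implied reads, on which the Poisson intervals also rest. Depth limits CysACA21 (7 to 21 reads) most.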
